A study of Homo sapiens with 6 samples.

Results

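Annotated introns of 100 kb or more were followed in K562 cells, an established human chronic myeloid leukaemia line. An intron was taken as a member when its junction was marked as annotated in the deposited junction tables, had a canonical-type splice motif, spanned at least 100000 nt and was listed in at least 1 of the 6 libraries. This gave 1509 introns among 241220 annotated junctions with such a motif and 780566 junctions in all. The choice used length, annotation and listing in any library, and no comparison of the groups. Listing rests on unique or multi-mapped reads that cross the junction, so it depends on depth. The groups were 3 poly(A)+ RNA libraries from cells with a U2AF1 wild type knock-in, called wild type here, and 3 from cells with U2AF1 S34F, in which phenylalanine replaces serine in the protein's first zinc finger. Both groups are K562 derivatives, and whether the replicates came from separate clones or cultures is not given in the sources used here, so p-values measure only the spread between these libraries. The labels give no parental K562 library among these samples, and no treatment or time point.

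Most human introns are removed while the gene is still being transcribed, and the polymerase needs a long time to cross the longest of them. In such introns the spliceosome pairs a 5′ splice site with a 3′ splice site that is far away, and recognition is thought to proceed mainly across the short exons, with many cryptic sites lying in between. U2AF1 is the small subunit of U2AF and contacts the AG at the 3′ end of the intron, and S34F alters which 3′ splice sites are preferred. A spliced read that spans an intron reports that a 5′ and a 3′ site were joined in RNA that reached the poly(A)+ pool. Positions below give each intron from its lowest to its highest base on hg19, the build named in the submitters' processing notes. On the plus strand the lower position lies at the 5′ splice site, and on the minus strand at the 3′ splice site. Genes at these positions and the bases around the splice sites were not analysed here, and a check of the line against its marker genes was not made.

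Unique junction reads numbered 25429944, 24930980 and 19380519 in the libraries of wild type, against 23462995, 18074706 and 39279169 in those of S34F. The members took 17159, 17572 and 13251 of these reads in wild type against 17149, 12116 and 28023 in S34F. They had 0.0708% of the reads on annotated junctions. The deepest library, S34F replicate 3, listed 1020 of the 1509 members, against 803 to 823 in the other 5 libraries.

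The members ran from 100021 to 641785 nt, with a median of 133593 nt. In all, 249 were 200 kb or longer and 67 were 300 kb or longer. They lay on 24 chromosomes, 781 on the plus and 728 on the minus strand. Chromosomes 3 and 6 held 9.48% and 8.35% of them, against 5.86% and 4.43% of all annotated junctions. Chromosome 19 held 5 members, or 0.331% against 6.44% of all annotated junctions. GT-AG ends were found in 1486 members and GC-AG ends in 23, and AT-AC ends in 0 of them. The GC-AG share of 1.52% was near the 1.6% of all annotated junctions.

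Read support was thin and uneven. At least 1 unique read crossed 1132 members, and the other 377 were listed through multi-mapped reads alone. Of the 1132, 262 had a single unique read in the 6 libraries together, and 322, these included, had reads in only 1 library. Reads in every library were found for 390 members. The longest member, chr16:78149052-78790836, had 0 unique reads. The 10 most-read members held 19.6% of all member reads, and 50 members held 50% of them. Multi-mapped reads made up 10.5% of the reads on members, against 6.78% on all annotated junctions. A total of 356 members had at least 30 unique reads over the 6 libraries, the minimum for the test of level, and 1153 did not.

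Support fell step by step with intron length. At least 30 reads were reached by 57.2% of annotated introns under 1 kb, 54.4% of those from 1 to under 10 kb, 40.3% from 10 to under 50 kb and 31.7% from 50 to under 100 kb. The share was 25.6% of the 1260 introns from 100 to under 200 kb and 13.3% of the 249 introns of 200 kb or more. An intron counts in these classes as soon as any library lists it, so introns that no library lists stay out.

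The place of the intron in its transcript also varied with length. Among the 356 members with at least 30 reads, 144 had no annotated 3′ splice site within 500 nt upstream of their 5′ site, so that no short annotated exon lay before them. That was 40.4%, against 12.3% of all annotated introns with 30 reads. This is the place of a first intron or of an intron after a long exon, and the junction tables do not separate them. On the other side, 51 members or 14.3% had no annotated 5′ site within 500 nt downstream, against 11.4% of all. A second annotated junction used the same 5′ site in 54.5% of the members and the same 3′ site in 60.1%, against 26.1% and 27.3% of all annotated introns.

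The reads at the splice sites were divided to match. The members' median share of the unique reads at their own 5′ site was 92.2%, against 99.5% over all annotated introns with 30 reads. For the 3′ site the medians were 96.8% and 99.6%. More than 90% of the reads at the 5′ site belonged to the member in 196 of 356 cases, and in 22 cases under 10% did. The corresponding numbers for the 3′ site were 238 and 19. Both shares were above 90% in 169 members.

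**Figure D1:**
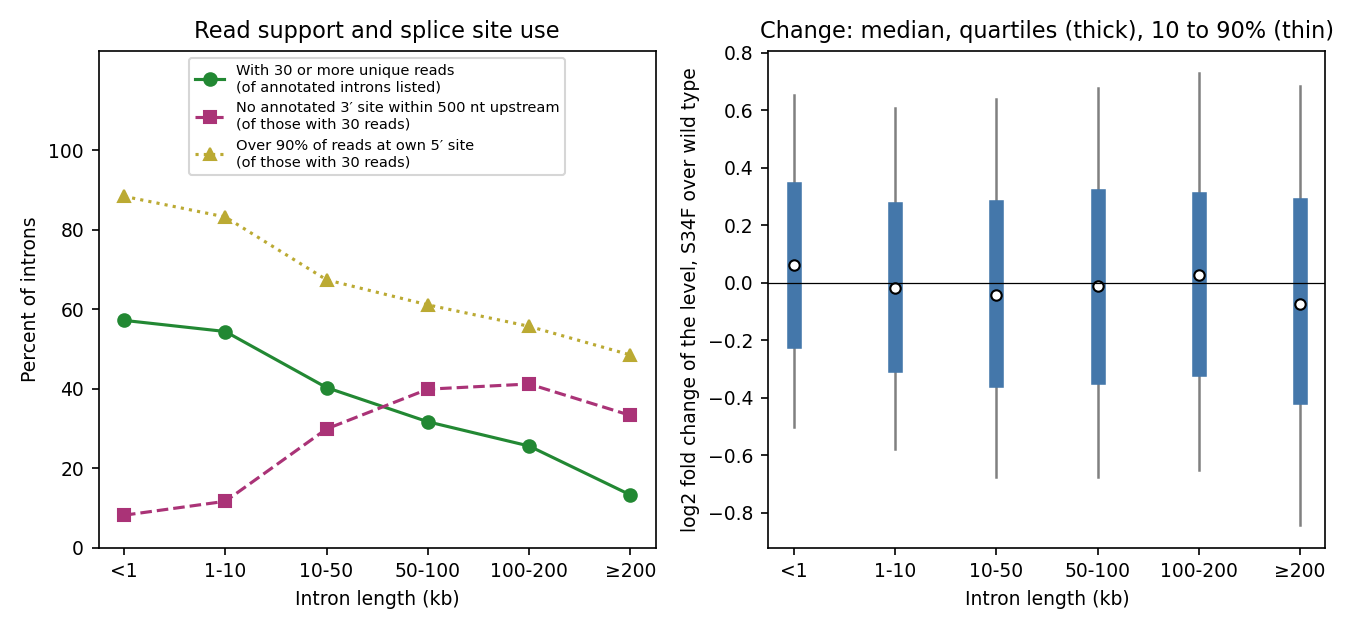
Left, percent of annotated introns in 6 length classes that had 30 or more unique reads, had no annotated 3′ site within 500 nt upstream, or held over 90% of the reads at their 5′ site. Right, log2 fold change of the level, S34F over wild type, per class (point, median; thick bar, quartiles; thin line, 10 to 90% of introns). The share with 30 reads drops from 57.2% to 13.3%, and the medians on the right lie between -0.07 and 0.06.

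Levels are given as RPM, unique reads on the intron per 1000000 unique junction reads of the library. First among the 10 members with the highest mean level came chr11:5368141-5526798, a minus-strand intron of 158658 nt. Its level was 25.8, 32.7 and 14.1 RPM in the wild-type libraries and 37.9, 37.1 and 39.9 in the S34F libraries. The S34F libraries lay close together and above all 3 wild-type libraries, which were far apart among themselves. The log2 fold change was 0.64 with an SE of 0.25, and the adjusted p of 0.298 (edgeR quasi-likelihood F-test, Benjamini-Hochberg) did not pass the threshold of 0.05. Without wild-type replicate 3, the lowest library, the log2 fold change was 0.367, and without wild-type replicate 2, the highest in that group, 0.892.

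The next most-read member was chr6:5109726-5216850, 107125 nt on the minus strand. It had 13.3, 15.1 and 16.0 RPM in wild type against 17.9, 19.3 and 13.8 in S34F, so the groups overlapped. chr5:60241210-60368951, of 127742 nt, had 16.0, 18.3 and 15.7 RPM in wild type against 14.3, 15.8 and 12.1 in S34F. Its groups overlapped at a single library on each side. The log2 fold changes were 0.19 (adjusted p = 0.711, edgeR) and -0.27 (adjusted p = 0.555). Without S34F replicate 2 they were 0.016 and -0.430, and without S34F replicate 3 they were 0.364 and -0.121.

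chr17:30821934-30932104, a minus-strand intron of 110171 nt, was the only other member of the 10 besides the chromosome 11 intron with all S34F libraries above all wild-type libraries. It had 8.30, 7.10 and 7.28 RPM in wild type against 10.6, 8.96 and 13.3 in S34F. The log2 fold change was 0.51 with an SE of 0.18 and an adjusted p of 0.248 (edgeR).

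The remaining 6 of the 10 had means between 9.18 and 12.6 RPM in both groups. The 120333-nt intron chr1:54747201-54867533 had 10.03 ± 1.19 RPM in wild type against 12.6 ± 2.73 in S34F (mean ± SD, n = 3 each, as for all such pairs below). The 100237-nt intron chr1:29213723-29313959 had 9.78 ± 2.07 and 12.5 ± 4.74, and its S34F spread came from replicate 1 with 17.9 RPM. The 146196-nt intron chr10:35626136-35772331 had 10.2 ± 0.848 and 11.9 ± 0.829. None of these differences exceeded the spread between libraries by the edgeR test, in which the adjusted p-values were 0.502, 0.596 and 0.607.

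The last 3 of the 10 had overlapping groups. The 151101-nt intron chr16:23848728-23999828 had 9.65 ± 1.53 RPM in wild type against 11.5 ± 4.60 in S34F (adjusted p = 0.751, edgeR). The 328929-nt intron chr3:99536888-99865816 had 10.8 ± 1.44 and 9.35 ± 2.58 (adjusted p = 0.714), and the 174962-nt intron chr8:126194499-126369460 had 9.18 ± 1.28 and 9.999 ± 2.13 (adjusted p = 0.867). The chromosome 3 intron was the only one of the 10 longer than 300 kb. Its 5′ site was also joined, in 4.40% ± 1.12 of the reads in wild type against 5.27% ± 0.295 in S34F, to an unannotated 50-nt exon inside the intron, 192087 nt downstream.

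The 5 longest members with reads in all 6 libraries were led by chr7:110603622-111127293, a minus-strand intron of 523672 nt. It was crossed by 97, 101 and 89 unique reads in wild type against 66, 76 and 103 in S34F. That made 3.81, 4.05 and 4.59 RPM in wild type against 2.81, 4.21 and 2.62 in S34F, with overlapping groups, a log2 fold change of -0.40 and an adjusted p of 0.509 (edgeR). The member took 86.7% ± 0.591 of the reads at its 5′ site in wild type against 85.0% ± 2.17 in S34F.

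chr14:68353922-68758600, of 404679 nt, had 20, 21 and 17 reads in wild type against 12, 16 and 18 in S34F. No other junction took a read at its 3′ site in any library. Its log2 fold change was -0.49 with an adjusted p of 0.637 (edgeR).

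chr1:246093240-246490502, a minus-strand intron of 397263 nt, had 79, 67 and 57 reads in wild type against 88, 38 and 107 in S34F. It was used less than 2 shorter annotated introns that end at the same 3′ site, where 6 annotated junctions were listed. A 58456-nt intron took 46.7% ± 10.2 of the reads at that site in wild type against 45.8% ± 5.14 in S34F. A 256805-nt intron, itself a member, took 35.3% ± 10.9 and 35.3% ± 7.01. The 397263-nt intron took 15.2% ± 3.14 and 16.2% ± 3.51. The order of these 3 introns by group mean was the same in both groups, but it did not hold in every library. The 256805-nt intron led the 58456-nt one in wild-type replicate 1 (46.8% against 38.1%) and in S34F replicate 2 (42.9% against 40.3%). None of the 3 shares differed between the groups beyond the spread (adjusted p = 0.905 for the longest, edgeR).

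The last of the 5 longest, chr14:27791348-28125648 of 334301 nt and chr14:27791348-28125543 of 334196 nt, are minus-strand introns that share a 3′ site. They had 24 and 22 reads over the 6 libraries, too few for the test. At the shared 3′ site the first took 46.4% ± 8.68 of the reads in wild type against 52.4% ± 33.6 in S34F. Its S34F shares were 16.7%, 57.1% and 83.3%, from only 6, 7 and 6 reads at the site.

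**Figure D2:**
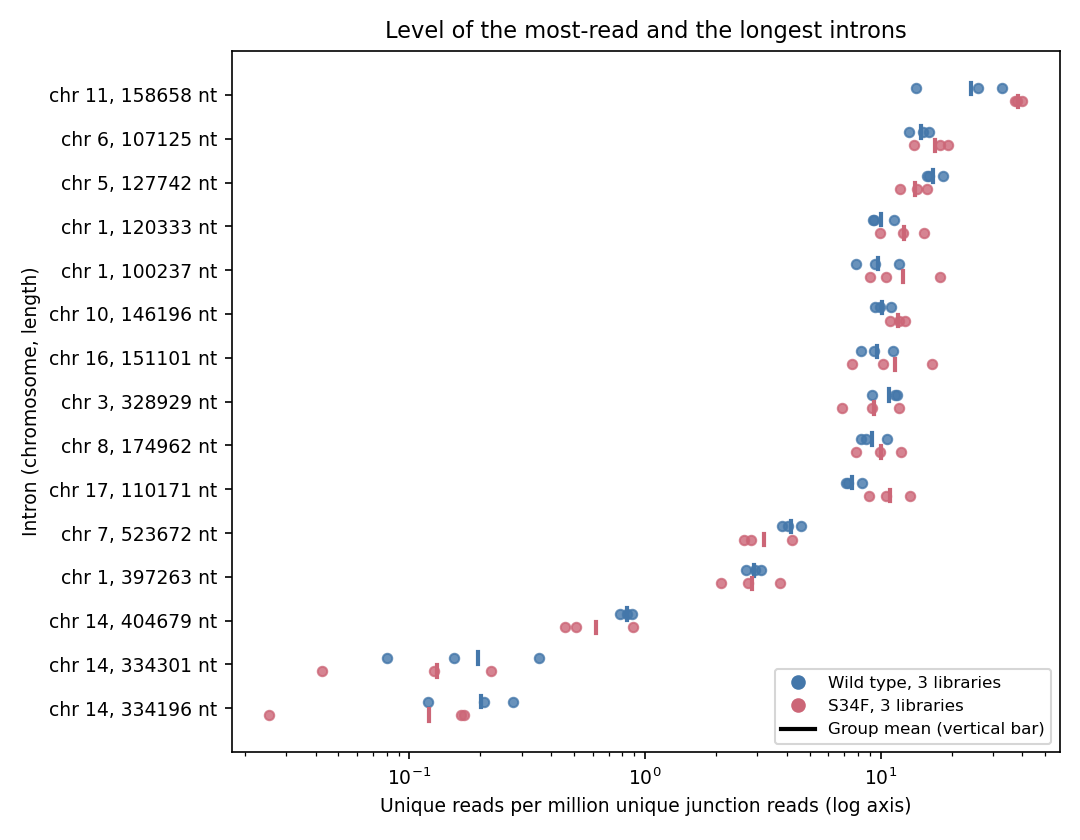
Level of the 10 most-read introns and of the 5 longest introns read in every library, in RPM on a log axis, 1 point per library, with a vertical bar at each group mean. The intron of 158658 nt on chromosome 11 has 14.1 to 32.7 RPM in wild type against 37.1 to 39.9 in S34F; in most other rows the groups overlap.

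Introns on either side of the limit of 100 kb varied in level, and 3 on each side are too few to compare the sides. Just above it, with at least 30 reads, were chr7:101459374-101559394 of 100021 nt with 3.07 ± 1.00 RPM in wild type against 4.15 ± 0.621 in S34F, chr11:10215535-10315561 of 100027 nt with 0.464 ± 0.131 and 0.481 ± 0.176, and chr14:89647151-89747293 of 100143 nt with 0.349 ± 0.0550 and 0.427 ± 0.0715. Just below it was chr9:126220177-126319848 of 99672 nt with 2.47 ± 0.699 and 2.22 ± 0.303 RPM. Then came chr9:102888832-102988343 of 99512 nt with 0.584 ± 0.267 and 0.228 ± 0.0663, and chr8:97506272-97605707 of 99436 nt with 0.128 ± 0.103 and 0.364 ± 0.0580. The log2 fold changes were 0.41, -0.003 and 0.28 above the limit (adjusted p = 0.504, 0.998 and 0.836, edgeR). Below it they were -0.19, -1.40 and 1.45 (adjusted p = 0.791, 0.299 and 0.358).

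The first comparison asked whether the level of single long introns differed between S34F and wild type. A level combines how much of the transcript there is with how the intron is spliced, and in bulk RNA these cannot be told apart. The fit covered all 128451 annotated junctions with at least 30 reads. None of the 356 members tested was called at an adjusted p under 0.05 (edgeR), where 0.115% of all junctions were called, 0.0475% higher and 0.0677% lower in S34F. At an unadjusted p under 0.05 there were 41 members, 17 higher and 24 lower in S34F, or 11.5% against 13.6% of all junctions. DESeq2 called 1 of the 356 members, against 1.05% of all junctions.

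Fold changes of the members were spread around 0. The median log2 fold change was 0.02, against 0.013 for all junctions, and 185 of 356 values were positive. Of the values, 10% were below -0.70 and 10% above 0.73, and 38 members were beyond 1 in either direction. Among introns from 50 to under 100 kb, 10% were below -0.68 and 10% above 0.68. The median SE of the members was 0.387, against a log2 fold change of 1 for a doubling. All 3 S34F libraries lay above all wild-type libraries in 27 members and below in 36, or 7.58% and 10.1%, against 9.37% and 8.48% of all junctions.

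Of the 6 members with the lowest p-values 4 had a lower level in S34F, and none passed the threshold. chr10:76158338-76285013, of 126676 nt, had 8.887, 11.07 and 12.02 RPM in wild type against 7.032, 6.639 and 5.957 in S34F. The groups did not overlap, and the log2 fold change of -0.73 with an SE of 0.18 had an adjusted p of 0.133 (edgeR), the smallest among the members. Its share at the 5′ site was 95.3% ± 1.52 in wild type against 94.6% ± 1.75 in S34F, a difference smaller than either SD.

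chr11:63782754-63918710, of 135957 nt, had 83, 86 and 68 reads in wild type against 36, 43 and 75 in S34F (log2 fold change -0.84, adjusted p = 0.175, edgeR). chr8:99608398-99718694, of 110297 nt, had 57, 50 and 55 reads against 35, 19 and 55 (-0.86, adjusted p = 0.19). chr4:62067484-62248841, of 181358 nt, had 18, 9 and 4 reads against 1, 1 and 5. This intron passed the minimum of reads for the test of level through the wild-type group alone, so its lower level in S34F is given as a description. In RPM, the S34F libraries were below all wild-type libraries in each of these 3 introns.

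The member that DESeq2 called was chr4:14702406-14861166, a minus-strand intron of 158761 nt. It had 0 reads in each wild-type library and 1, 11 and 27 in the S34F libraries, and it passed the minimum of 30 reads through the S34F group alone, so the size of its difference is given as a description. In RPM the S34F libraries had 0.0426, 0.609 and 0.687, the first of them no higher than the wild-type floor of 0.043. Set against that floor of 3 reads over the wild-type group, the pooled S34F level of 0.483 RPM was at least 11.2-fold higher. It was the only one of the 356 members with no unique read in a whole group, and the edgeR test did not call it (adjusted p = 0.162). Neither of its splice sites had a unique read in any wild-type library, so its share could not be compared between the groups. In S34F its 5′ site had 3, 14 and 43 reads and its 3′ site 1, 12 and 32.

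The second comparison asked whether S34F changed how often a long intron was chosen over junctions that share its 5′ site, which is a choice between 3′ sites. It is independent of transcript abundance to the extent that the competing junctions share their transcripts. Of the 1509 members, 164 at 139 sites had the reads and the competition to be tested, some of them with under 30 reads of their own, among 51522 junctions of all lengths, annotated or not. A call needed an adjusted p under 0.05 and group means at least 10 percentage points apart. It was met by 1 member, with a higher share in S34F, against 2.11% of all junctions tested, 1.02% higher and 1.09% lower. By the adjusted p alone there were 2 members, against 4.63% of all junctions.

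The same was asked at the 3′ site, which is a choice between 5′ sites and covers alternative first exons. Here 128 members at 111 sites were tested among 48269 junctions, and 1 member was called, again with a higher share in S34F, against 0.934% of all, 0.458% higher and 0.476% lower. The adjusted p alone gave the same number, 1, against 2.04% of all junctions. At an unadjusted p under 0.05 there were 23 members at the 5′ site, or 14.0% against 19.9% of all junctions, and 12 at the 3′ site, or 9.38% against 17.3%. The 23 were 12 higher and 11 lower in S34F, and the 12 were 3 higher and 9 lower. The matching splits over all junctions are not given here.

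The competitor with the most reads was usually a shorter intron. That held for 135 of 164 members at the 5′ site and for 109 of 128 at the 3′ site. The member itself was the most used junction in 89 and 59 of them. Shares differed by a median of 2.18 points in either direction at the 5′ site, against 1.48 over all junctions tested, and 1.8 against 1.43 at the 3′ site. A difference of at least 10 points was seen in 13 members at the 5′ site, or 7.93% against 7.32% of all, and in 11 at the 3′ site, or 8.59% against 6.01%. Lower shares in S34F were found in 84 of 164 members at the 5′ site and in 77 of 128 at the 3′ site. The matching counts over all junctions are not given here, and shares of members at the same site depend on each other. The median signed differences were -0.0396 and -0.606 points, against 0.00231 and 0.00424 over all junctions tested.

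**Figure D3:**
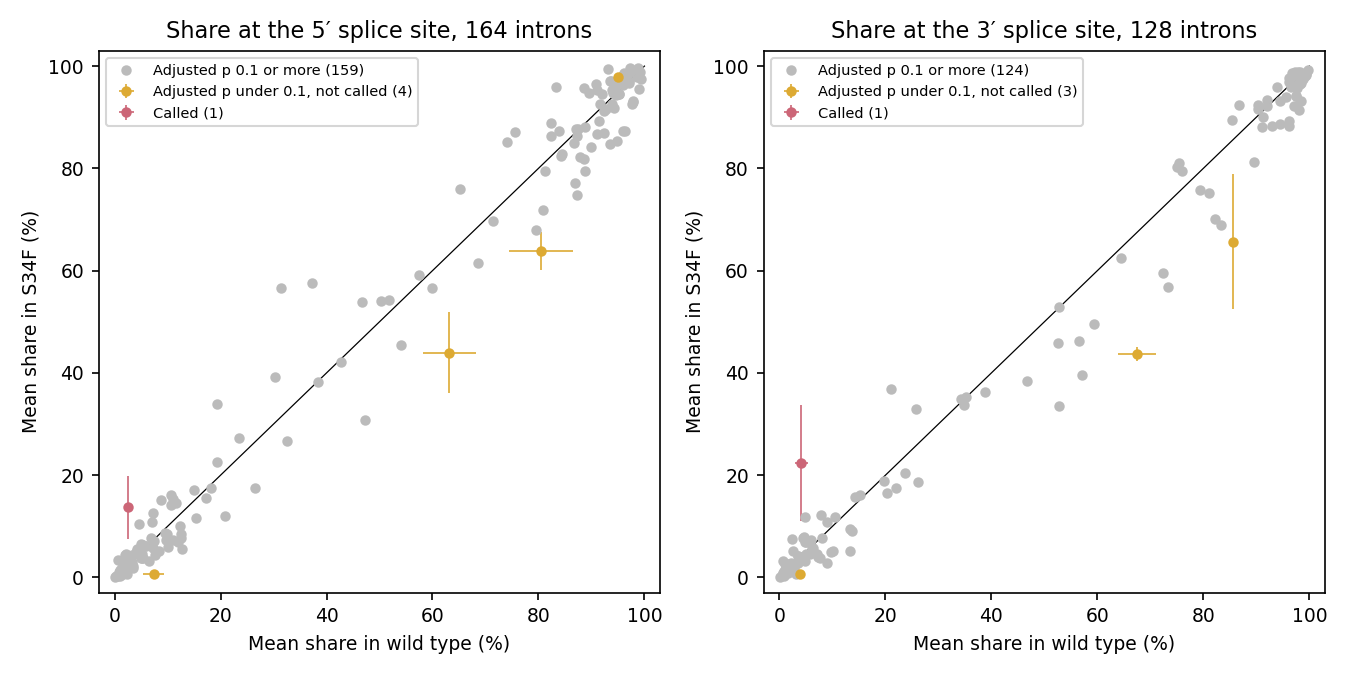
Mean share of the unique reads at the intron's own 5′ site (left, 164 introns) and 3′ site (right, 128 introns), wild type on the x axis and S34F on the y axis, in percent, with the diagonal of equal shares. Bars on coloured points are SDs over 3 libraries; 1 intron in each panel was called, at 2.56% against 13.7% on the left and 4.13% against 22.4% on the right.

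The same intron was called at both of its ends. chr8:48203727-48308935 is a plus-strand intron of 105209 nt whose splicing skips an annotated exon of 164 nt. It had 2 unique reads in each wild-type library and 13, 3 and 23 in the S34F libraries. Multi-mapped reads on it numbered 1, 4 and 1 in wild type against 0, 1 and 1 in S34F. The intron passed the minimum of 10 unique reads of its own through the S34F group alone. Its calls and the size of its differences are therefore given as a description. At its 5′ site it took 2.44%, 2.00% and 3.23% of the reads in wild type against 18.3%, 6.67% and 16.2% in S34F. The groups did not overlap, and the mean rose by 11.2 points, from 2.56% ± 0.621 to 13.7% ± 6.20 (log2 odds 2.69, SE 0.65, adjusted p = 0.0176, edgeR).

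The share at the 3′ site of this intron was 3.39%, 3.45% and 5.56% in wild type against 24.1%, 10.3% and 32.9% in S34F. The mean rose by 18.3 points, with log2 odds of 2.89, an SE of 0.68 and an adjusted p of 0.0271 (edgeR). The skipped exon spans chr8:48206456-48206619. Its inclusion, the mean of the 2 inclusion junctions over that mean plus the skipping junction, was 97.0%, 97.4% and 95.5% in wild type against 77.6%, 91.2% and 76.2% in S34F.

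The intron downstream of that exon is itself a member, chr8:48206620-48308935 of 102316 nt, with 50, 50 and 31 reads in wild type against 35, 23 and 37 in S34F. At the common 3′ site its share was 85.7% ± 0.817 in wild type against 65.7% ± 13.3 in S34F (adjusted p = 0.0817, edgeR). The 2729-nt intron upstream of the exon took 93.3% ± 6.80 of the reads at the common 5′ site in wild type against 80.5% ± 5.31 in S34F (adjusted p = 0.0505). These values are the other sides of the same choices and no separate evidence. The skipping junction rested on 45 reads in all, and the calls at its 2 ends use these same reads. The call at the 5′ site was lost without S34F replicate 1 (adjusted p = 0.0761), S34F replicate 3 (0.131) or wild-type replicate 2 (0.0793), and with DESeq2 (0.143), limma (0.118) or multi-mapped reads added (9.50 points, 0.0594). Its counterpart at the 3′ site was lost in the same settings and without S34F replicate 2, with adjusted p-values from 0.0536 to 0.218.

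On chromosome 9, the 2 most-read members that end at position 37302184 had lower shares in S34F at their 5′ sites. chr9:37120621-37302184, of 181564 nt, had 6, 7 and 8 reads in wild type against 1, 1 and 0 in S34F. Its share at the 5′ site was 6.45%, 6.03% and 9.64% in wild type against 0.709%, 1.39% and 0% in S34F, where the 0 comes from 200 reads at the site and allows up to 1.5%. The difference of -6.68 points had an adjusted p of 0.0123 (edgeR) and was not called, because it is under 10 points. This intron passed the minimum of 10 reads of its own through the wild-type group alone, so the size of its difference is given as a description. The rest of the site's reads went almost wholly to an annotated 5688-nt intron, which took 91.9% ± 1.86 in wild type against 98.8% ± 1.44 in S34F.

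chr9:37126940-37302184, of 175245 nt, was the main member there with 174, 178 and 155 reads in wild type against 139, 80 and 192 in S34F. It took 73.4%, 83.6% and 84.2% of the reads at its 5′ site in wild type against 67.8%, 60.6% and 63.0% in S34F. The groups did not overlap, and the difference of -16.6 points had an adjusted p of 0.0571 (edgeR). It was called without wild-type replicate 1 (-20.1 points, adjusted p = 0.00683) and with multi-mapped reads added (-18.1 points, 0.0393), and in no other setting run. Of the 16 junctions at this 5′ site, the one that was called was an unannotated junction of 33122 nt to position 37160061, which rose from 4.33% ± 1.39 to 16.7% ± 2.02 (12.4 points, adjusted p = 0.00578). The share of the 175245-nt intron at its 3′ site was 91.2% ± 1.77 in wild type against 88.1% ± 3.00 in S34F (adjusted p = 0.598).

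chr6:157256711-157405795, of 149085 nt, holds an unannotated exon of 42 nt at chr6:157357969-157358010. The intron had 38, 55 and 50 reads in wild type against 33, 19 and 68 in S34F. It took, at its 3′ site, 64.4%, 71.4% and 66.7% of the reads in wild type against 45.2%, 43.2% and 42.8% in S34F. At its 5′ site the shares were 63.2% ± 4.98 and 44.0% ± 7.94. The groups did not overlap at either end, the differences were -23.8 and -19.2 points, and the adjusted p-values of 0.0648 and 0.0777 (edgeR) did not pass the threshold. Both were called without wild-type replicate 1 (adjusted p = 0.0276 and 0.0289) and in no other setting run. Without that library, 2.77% of all junctions were called at the 3′ site and 4.15% at the 5′ site, against 0.934% and 2.11% with all libraries.

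Nearly all competing reads at both ends came from the junctions of the 42-nt exon. Its inclusion was 34.3% ± 4.39 in wild type against 56.1% ± 3.57 in S34F. Both of its junctions are unannotated, and the upstream one is itself 101258 nt long. The 42 nt are a multiple of 3, and whether they lie in a reading frame was not analysed here.

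**Figure D4:**
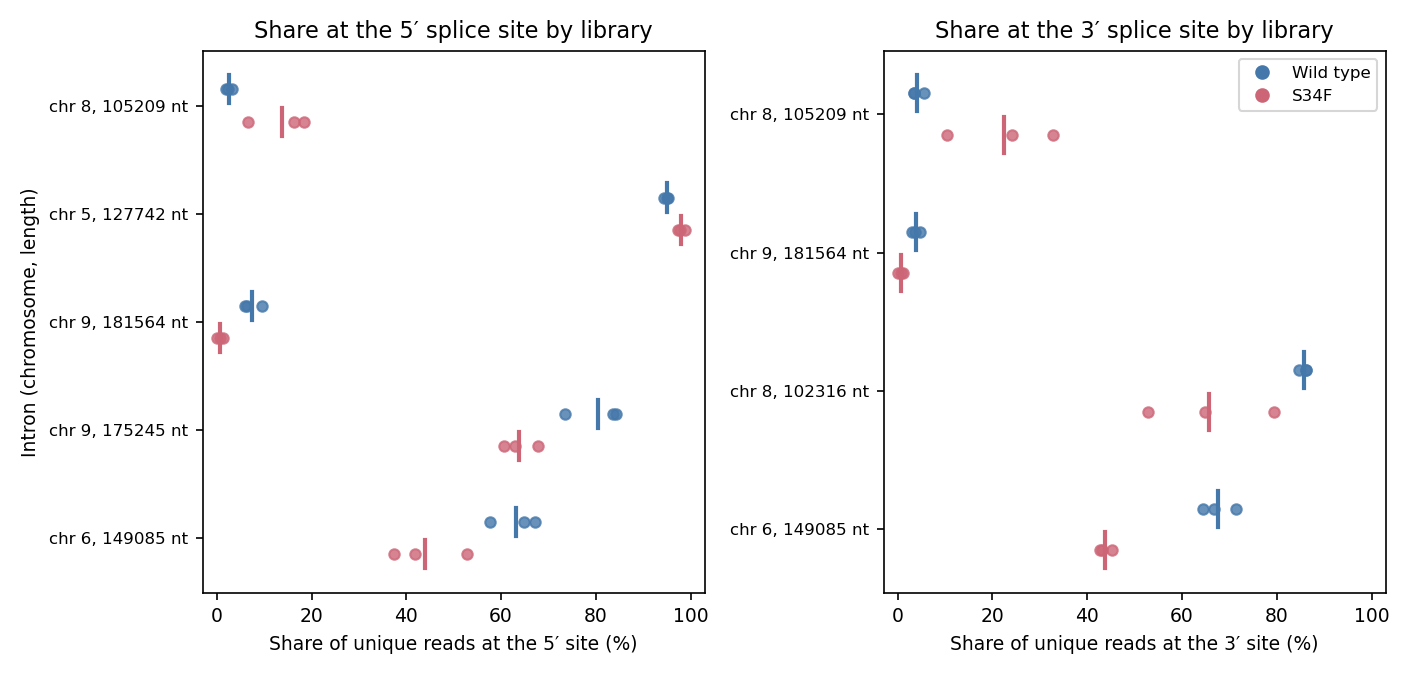
Share of the unique reads at the 5′ site (left) and the 3′ site (right) in each library, for the introns with an adjusted p under 0.1, in percent, with a vertical bar at each group mean. The intron of 105209 nt on chromosome 8 lies at 2.00 to 3.23% in wild type against 6.67 to 18.3% in S34F on the left; wild-type and S34F points overlap in none of the rows.

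Apart from these and a highly read intron on chromosome 5, the members at an unadjusted p under 0.05 all had an adjusted p above 0.1, and some of them, chosen after their values were seen, are given here. At the 5′ site, chr8:74334938-74464246 of 129309 nt took 44.6%, 30.2% and 19.5% of the reads in wild type against 58.6%, 65.9% and 45.2% in S34F, which was the widest gap of the 23 (25.1 points, adjusted p = 0.112, edgeR). chr12:32260479-32369180 of 108702 nt took 37.2% ± 4.03 and 57.6% ± 3.19 (adjusted p = 0.146), and chrX:64808493-64936679 of 128187 nt took 19.3% ± 1.40 and 33.9% ± 4.56 (adjusted p = 0.158). In these 3 introns the long junction had the higher share in every S34F library.

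Lower shares in every S34F library were found in chr7:119440929-119547346 of 106418 nt, with 88.8% ± 1.46 in wild type against 79.4% ± 3.64 in S34F (adjusted p = 0.107, edgeR), and in chr14:90263669-90397884 of 134216 nt, with 87.4% ± 2.95 and 74.8% ± 8.01 (adjusted p = 0.197). In the list of those under 0.1, the most-read member was chr5:60241210-60368951, at 94.9% ± 0.464 and 97.9% ± 0.795 (adjusted p = 0.0934). Among the 12 at the 3′ site, the next lowest adjusted p was that of chr5:118604603-118728510 of 123908 nt, which took 95.6%, 98.8% and 100% in wild type against 94.9%, 94.2% and 84.9% in S34F (-6.79 points, adjusted p = 0.129). After it came chr8:15340993-15480588 of 139596 nt, with 0.745% ± 1.06 and 3.17% ± 0.909 (adjusted p = 0.141), an intron with more multi-mapped than unique reads in every library. It had 6, 1 and 0 unique reads in wild type against 15, 7 and 11 in S34F, and passed the minimum of 10 through S34F alone. The gap in chr3:24270493-24378790 of 108298 nt was wider, with a larger adjusted p, at 52.7% ± 5.34 and 33.6% ± 9.71 (adjusted p = 0.277).

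The most-read member, chr11:5368141-5526798, shared its 5′ site with 30 other junctions. Its own share was 67.4%, 65.5% and 62.6% in wild type against 78.1%, 72.9% and 76.7% in S34F, groups that did not overlap (10.7 points, adjusted p = 0.17, edgeR). The next most used junction there was unannotated and ended farther downstream, at position 5367584. It took 18.5% ± 0.614 in wild type against 9.51% ± 1.25 in S34F. That difference of -8.97 points had an adjusted p of 0.044 and was not called, because it is under 10 points. The junction to position 5367130 took 3.88% ± 1.81 and 0.855% ± 0.299 (adjusted p = 0.00852), again under 10 points apart.

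Still longer annotated introns left the same 5′ site, of 223617 and 235412 nt, and took 1.49% ± 0.694 and 2.37% ± 1.35 of its reads in wild type. In S34F they took 1.80% ± 0.684 and 2.92% ± 0.164. At the 3′ site of the 158658-nt intron, a second annotated 5′ site at position 5526580 gave 20.2% ± 1.37 of the reads in wild type against 16.5% ± 0.798 in S34F (adjusted p = 0.639, edgeR).

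Long introns also followed each other. In 160 cases 2 members were separated by an exon of at most 500 nt, and in 24 of these both had at least 30 reads. In many of these the read numbers were close. chr17:55339554-55478739 and chr17:55478833-55607036, of 139186 and 128204 nt on either side of a 93-nt exon, had 799 and 771 reads. chr7:133164893-133314797 and chr7:133314895-133502077, of 149905 and 187183 nt around a 97-nt exon, had 657 and 693. Of the 24 pairs, 13 were within 1.5-fold of each other and 5 were more than 3-fold apart, although some of the pairs share an intron.

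The pairs described next were far apart in both groups. The 523672-nt intron chr7:110603622-111127293 had 532 reads, and the 299778-nt intron chr7:110303778-110603555 that follows it after a 66-nt exon had 86. The log2 ratio of the second to the first was -2.55 ± 0.074 in wild type against -2.64 ± 0.025 in S34F. chr7:7713085-7841300 had 355 reads and chr7:7841375-8007329 after it 40, with log2 ratios of -3.23 ± 0.364 and -2.99 ± 0.191. chr6:143382204-143486218 had 41 reads and chr6:143486321-143605246 after it 636.

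The pair chr17:9281971-9395145 and chr17:9153963-9281868, with 502 and 439 reads, had log2 ratios of 0.09 ± 0.154 in wild type against -0.54 ± 0.312 in S34F. These ratios were chosen for mention after their values were seen and were not tested.

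**Figure D5:**
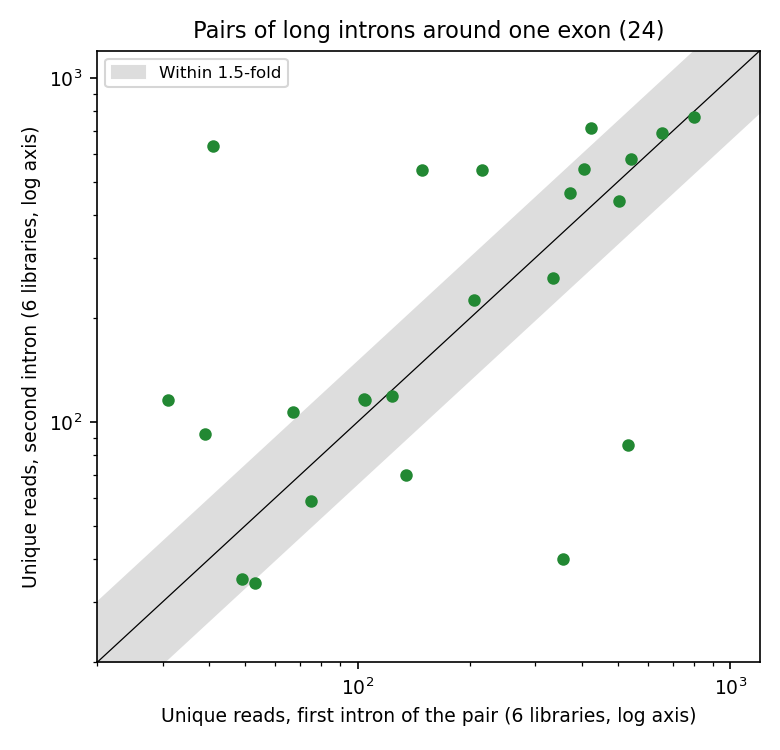
Unique reads over the 6 libraries on the first (x axis) and second (y axis) of 2 consecutive long introns around an exon of at most 500 nt, for the 24 pairs with 30 or more reads on both, on log axes; the band covers ratios within 1.5-fold. Of the 24 pairs, 13 lie within 1.5-fold and 5 lie more than 3-fold from the diagonal.

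Summed over all members, the level was 675, 705 and 684 RPM in wild type against 731, 670 and 713 in S34F. The groups overlapped, and the difference between 688 ± 15.4 and 705 ± 31.2 did not exceed the spread (exact permutation test, two-sided, p = 0.5, adjusted p = 0.5 over the 3 values compared, where 3 against 3 libraries allow no p below 0.1). The direction was set by a few members: without the 10 most-read ones the difference was -8.12 RPM instead of 17.1. It also moved with single libraries, to 4.11 without S34F replicate 1 and 34.4 without S34F replicate 2.

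The number of members seen was highest in the deepest library. At least 1 unique read was found for 654, 652 and 644 members in wild type against 649, 648 and 810 in S34F, where replicate 3 was the deepest library. Thinned to the depth of the shallowest library, the expected numbers were 604, 600 and 634 in wild type against 613, 648 and 655 in S34F (exact permutation test, two-sided, p = 0.2, adjusted p = 0.5). After thinning, S34F replicate 3 was still the highest, but close to S34F replicate 2 (655 against 648).

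Unannotated junctions of the same length were a different set. There were 4211 of them, and 3309 joined 2 sites of which neither was annotated. Their median largest overhang, the longest stretch that a read aligned on its shorter side of the junction, was 26.0 nt among those with a unique read, against 45.0 nt for the members. Among the 282 with at least 30 reads, 111 had an overhang under 20 nt, against 0 of the 356 members with that many reads. A single junction, chr16:33761171-33962999 with an overhang of 13 nt, had 7720 reads.

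Unannotated junctions of 100 kb or more took 403, 398 and 630 RPM in wild type against 369, 437 and 303 in S34F, with overlapping groups (exact permutation test, two-sided, p = 0.4, adjusted p = 0.5). With an overhang of at least 20 nt they took 223, 227 and 283 RPM in wild type against 192, 215 and 189 in S34F, where the groups no longer overlapped (p = 0.1 in the same exact test, the smallest it can give). The members themselves hardly moved under that limit, from 675 to 673 RPM in wild-type replicate 1.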

How the data were processed

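The 6 K562 samples, 3 wild-type knock-in and 3 S34F, were sequenced paired-end on a HiSeq2000 from poly(A)+ TruSeq libraries, per the labels' protocols. STAR and hg19 are named in the submitters' processing notes; the STAR version, the annotation and the junction filters are not given in the sources used here. Each library had 1 deposited junction table without a header. The deposited values used were counts of unique and of multi-mapped reads per junction, raw whole numbers, together with other deposited fields (strand, motif code 1 to 6, annotation flag and largest overhang in nt).

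The tables were joined on chromosome, first and last base, with 0 for a junction that a table does not list. Levels were unique reads per 1000000 unique junction reads (RPM), computed here from the deposited counts. Level tests used edgeR 4.0.16 (R 4.3.3; quasi-likelihood F-test, robust, TMM scaling) over all annotated junctions with at least 30 reads. Share tests used the same tool with 2 counts per library (the junction, and all others at its site), an intercept per library and a term for the change of count type in S34F, at sites with 20 reads in every library and 10 on each side over the 6. Adjusted p-values are Benjamini-Hochberg over all junctions tested. Upper limits for a 0 are 3 counts of the total and, with no molecular identifiers, cover counting error alone. Tested on simulated data with the real depths, edgeR called 2% of 100 junctions changed by log2 1 and 61% of 100 changed by log2 2 in level. For shares, 20% and 80% of 50 each changed by 2 and 4 in log2 odds were called at the 5′ site, and 28% and 62% at the 3′ site. A simulated share call also needed a difference of at least 10 points, so these percentages combine the test with that minimum.

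Introns are named by a rule: the 10 most read, the 5 longest read in every library, every one called, and the 3 nearest the length limit on each side; those with the lowest p-values, and the consecutive pairs, were added after their values were seen. The members and lists were chosen with earlier results of these data known. Alternatives were DESeq2 1.42.0, limma 3.58.1, other scaling, filters, read classes, length limits, a replicate block and leaving out each library. The 7 long annotated junctions without a canonical motif, gene names and genome sequence were not used here.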

Additional observations from a re-analysis of the deposited data

How the results depend on the processing

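Of the counts and summed values that answer a comparison, 53 were within 1.5 times of the reported count or within the spread under an alternative, and the others follow. The number of members called in level was 0. It was 1 of 356 with DESeq2, a setting that called 1.05% of all junctions. With no minimum of reads it was 13 of 1132, against 2.35% of all junctions. At a limit of 50000 nt it was 2 of 1573, against 0.115%. It was 0 in every other setting run, the replicate block included. At the 5′ site 1 member was called. The number was 0 with 50 reads at the site, DESeq2, limma, 200000 nt or a minimum difference of 20 points. It was 2 of 164 with no minimum difference, against 4.63% of all junctions, and 9 of 672 at 50000 nt, against 2.11%. Leaving out 1 library gave 0 to 6. The 6 of 151 came without wild-type replicate 1, where 4.15% of all junctions were called. The number was 0 without wild-type replicate 2, S34F replicate 1 or S34F replicate 3. For the 3′ site, where 1 member was called, the number was 0 with 50 reads, DESeq2, limma, multi-mapped reads added, 200000 nt or 20 points. It was 2 of 98 with annotated competitors only, against 2.27% of all junctions tested, and 5 of 628 at 50000 nt, against 0.934%. Leaving out 1 library gave 0 to 2, with 2 of 116 without wild-type replicate 1, against 2.77% of all junctions. Replicate numbers did not pair the libraries (correlations of same-numbered deviations -0.159, -0.13 and 0.00197 over 68830 junctions); with the replicate block 1 member was called at each end, as without it. Over all junctions, leaving out 1 library moved the calls from 77 to 1932 at the 5′ site and from 4 to 1210 at the 3′ site, and in level from 148 to 0 without S34F replicate 3 or wild-type replicate 2, 1 without wild-type replicate 3, 53 without S34F replicate 1, 269 without wild-type replicate 1 and 516 without S34F replicate 2.

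The difference in summed level, 17.1 RPM, was -74.5 at 50000 nt (exact permutation p = 0.6), -4.79 at 200000 nt (p = 0.2) and -8.12 without the 10 most-read members (p = 0.8). Leaving out 1 library gave 4.11 to 34.4. Of 182 log2 fold changes of 13 introns under an alternative, 6 reversed, none of them called. Leaving out 1 library at a time gave -0.005 (without S34F replicate 1) to 0.474 for chr1:29213723-29313959, -0.042 (without S34F replicate 1) to 0.293 for chr8:126194499-126369460, and -0.086 (without S34F replicate 3) to 0.451 for chr16:23848728-23999828. For chr1:246093240-246490502 it gave -0.277 to 0.052, with 0.031 without S34F replicate 3 and 0.010 without wild-type replicate 1. The share of chr8:48206620-48308935 at its 3′ site was called with annotated competitors only (-21.6 points, edgeR adjusted p = 0.0105), and the level of chr11:5368141-5526798 with no minimum of reads (0.0401). The cause of these changes was not tested.

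Depth limits what can be said of most members: 1153 of 1509 had under 30 unique reads, and 2 of 100 simulated 2-fold changes were called, so the absence of calls does not show that levels were alike. Intron length, gene identity and the bases of the splice sites cannot be separated here.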
